A study of Drosophila melanogaster with 2 samples.

Results

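The genes described here are named for the general RNA polymerase II transcription machinery of Drosophila melanogaster, which serves the transcription of protein-coding genes. They were chosen by symbol alone: a protein-coding gene on the main chromosome arms belonged to the set when its symbol began with MED or Taf followed by a digit, with TfII or with Polr2. This gave 62 genes of 13945, namely 25 MED, 15 Taf, 9 TfII and 13 Polr2 genes. The symbols also took in the elongation factor TfIIS and genes named after another member, such as Taf12L and TfIIA-S-2. No measured value entered this symbol rule, but the rule was chosen with earlier results of these data known. The measurement was chromatin immunoprecipitation with sequencing of lame duck (lmd), a zinc finger factor of muscle precursors, tagged with eGFP (enhanced green fluorescent protein) in transgenic flies of a strain labelled lmd-GFP and precipitated with anti-GFP. Both samples, biological replicates 1 and 2, were whole embryos aged 0 to 18 hours, so cells that lack lmd were mixed with those that have it, and how strongly the tagged protein was made relative to the endogenous one is not given in the sources used here. There is 1 group and no comparison between conditions, and the control libraries were not analysed here.

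RNA polymerase II cannot find a promoter by itself. TFIID, built from the TATA-binding protein and the TAFs (TBP-associated factors), recognises the core promoter, TFIIA and TFIIB steady this contact and place the polymerase, TFIIF travels with the polymerase, and TFIIE brings in TFIIH, which opens the DNA. Mediator, a large complex with head, middle and tail modules and a detachable kinase module, carries signals from sequence-specific factors to the polymerase. The genes of such proteins are active in most cells, and many lie head to head with an unrelated gene, sharing the DNA between the start sites.

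The peak set used throughout is the conservative set called on both replicates together, with 5012 peaks, of which 4998 fell on the 6 main chromosome arms, at an irreproducible discovery rate (IDR) of about 0.01. A peak was placed by its summit. It was counted at the promoter when the summit was at most 500 bp from an annotated transcription start site (TSS) of the gene itself, and in the locus when it fell in the gene body or its 2 kb flanks. The peak signal is the authors' value, without a unit, and serves to order peaks within a list. Read depth is unknown, and genes and peaks are not replicates, so the Wilson 95% intervals below cover counting error only and no test was applied.

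Of the 62 machinery genes, 20 had a summit at their own promoter, 32.3% (Wilson interval 22.0 to 44.6), against 17.2% of all protein-coding genes. The genes of the polymerase itself had the highest share of the 4 groups and those of the TFII factors the lowest. Polr2 genes had a promoter summit in 7 of 13 cases, 53.8% (29.1 to 76.8). MED genes had one in 9 of 25, 36.0% (20.2 to 55.5). Taf genes had one in 3 of 15, 20.0% (7.0 to 45.2), and TfII genes in 1 of 9, 11.1% (2.0 to 43.5). These 4 intervals overlap, so the order of the groups is a description. It also moved with the library. In the peak set of replicate 2 alone, that is without replicate 1, 22.6% of all genes had a promoter summit. There the Taf count was 7, the TfII count 3 and the Polr2 count 6, so the Taf share was slightly above the Polr2 share. Without replicate 2 these counts were 3, 1 and 5, and the share of all genes was 13.3%.

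A summit lay somewhere in the locus of 30 of the 62 genes, 48.4% (36.4 to 60.6), against 33.5% of all protein-coding genes. The machinery genes are compact, with a median locus of 5252 bp including both flanks against 6166 bp over all genes. Among the 39 machinery genes whose locus is at most 6000 bp long, 19 had a summit in it, 48.7%, against 22.7% of all genes with loci this short. Taf genes had a locus summit in 9 of 15, MED genes in 11 of 25, Polr2 genes in 7 of 13 and TfII genes in 3 of 9. Inside the gene body itself, without flanks, only 5 of the 62 had a summit, 8.06%, against 12.5% of all genes. Those 5 were MED6, MED17, MED20, Taf7 and TfIIA-L.

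**Figure D1:**
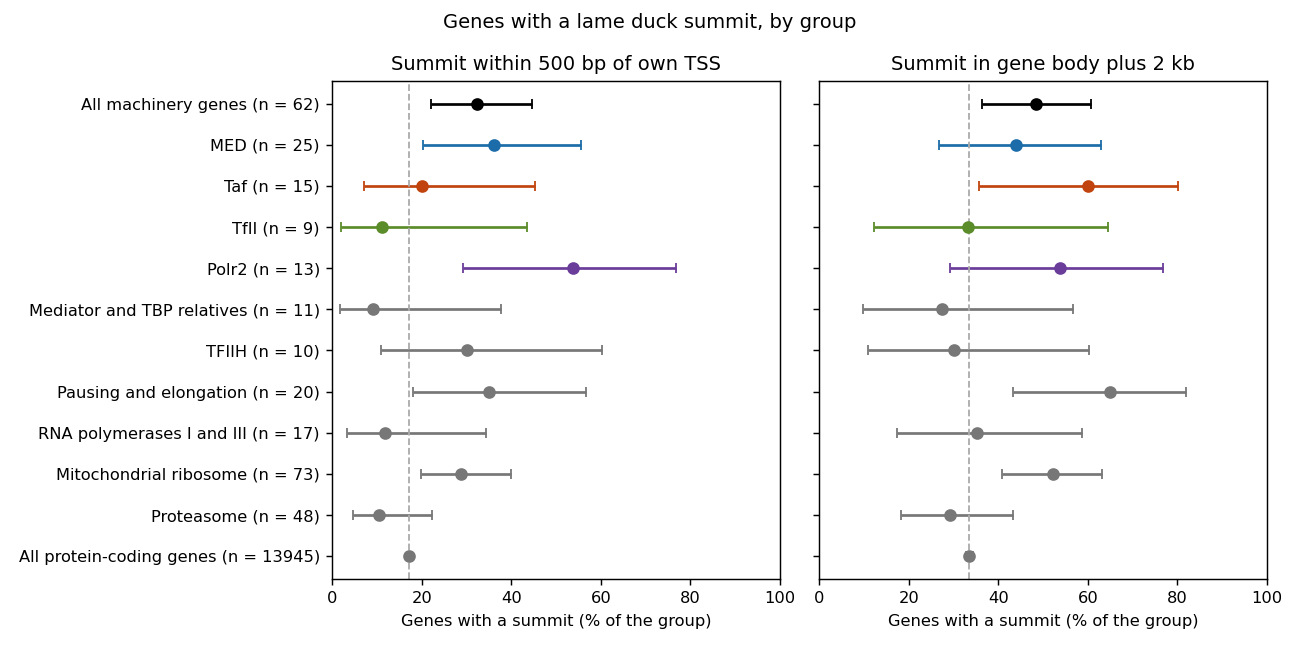
Share of genes (x axis, percent of the group) with a conservative summit within 500 bp of an own TSS (left) and in the gene body with 2 kb flanks (right), for the machinery genes and their 4 symbol groups, for related gene lists, and for all protein-coding genes in the bottom row; bars are Wilson 95% intervals and the dashed line marks all protein-coding genes. Polr2 genes stand at 53.8% on the left and TfII genes at 11.1%, with wide intervals that overlap.

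At 15 of the 20 genes the strongest promoter summit sat in the stretch between the machinery gene and an opposite-strand neighbour, and the sequences of 3 such stretches show how little DNA lies there. Each is the plus strand of Release 6 (dm6) from the base after the start site of the left gene to the base before the start site of the right gene, with the 11 bases centred on the summit in capitals. The first lies between elm and MED27 at chr3R:5654862-5655138, the next between 140up and Polr2B at chr3R:14125549-14125790, and the last between pll and an internal start site of TfIIA-L at chr3R:27253183-27253429.
MED27: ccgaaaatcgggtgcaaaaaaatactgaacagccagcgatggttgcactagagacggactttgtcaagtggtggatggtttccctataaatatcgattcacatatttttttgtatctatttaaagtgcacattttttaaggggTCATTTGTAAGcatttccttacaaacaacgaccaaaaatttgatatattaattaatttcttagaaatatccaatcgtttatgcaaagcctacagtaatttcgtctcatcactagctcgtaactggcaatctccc
Polr2B: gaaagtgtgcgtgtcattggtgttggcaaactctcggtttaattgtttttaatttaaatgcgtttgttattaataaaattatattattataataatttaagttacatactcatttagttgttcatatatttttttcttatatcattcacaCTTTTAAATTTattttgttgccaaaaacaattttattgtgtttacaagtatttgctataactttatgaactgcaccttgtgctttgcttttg
TfIIA-L: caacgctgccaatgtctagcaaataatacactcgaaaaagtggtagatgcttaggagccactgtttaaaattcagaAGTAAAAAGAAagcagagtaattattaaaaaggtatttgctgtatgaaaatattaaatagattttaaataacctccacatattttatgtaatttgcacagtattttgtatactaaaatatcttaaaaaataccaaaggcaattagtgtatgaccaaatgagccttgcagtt
The stretches are 277, 242 and 247 bp long and rich in A and T, with 35.7%, 24.8% and 29.6% GC. Within 100 bp of the summit, the median GC content was 31.8% over the 21 promoter summits of machinery genes and 33.8% over all 1910 promoter summits of the set.

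Close neighbours were common in this gene set, and nearly all of its promoter summits were at such genes. Another gene's TSS lay within 500 bp of an own TSS at 38 of the 62 machinery genes, 61.3%, against 30.9% of all protein-coding genes. At all 38 a gene of the opposite strand was among these neighbours, and the same held for 3878 of the 4309 such genes in the whole annotation. Of the 38, 18 had a promoter summit, 47.4%, against 31.9% of all genes with so close a neighbour. Of the 24 without one, only MED4 and Polr2F had a promoter summit, 8.33%, against 10.6% of all such genes. Had the machinery genes carried summits at these 2 shares of all genes, 14.7 of them would have had one, against the 20 found. This difference was not tested, and the rule on neighbours was chosen after values were seen. The spacing also varied among the 38. With the nearest other TSS at most 250 bp away, 9 of 24 machinery genes had a promoter summit, 37.5%, against 26.9% of all such genes, and at 251 to 500 bp 9 of 14 did, 64.3%, against 39.2%. The median distance to that nearest other TSS, on either strand, was 251 bp at the 18 genes with a summit and 97.5 bp at the 20 without. A start shared with a gene of the same strand counted as 0 bp, as at MED31. The distance is not always the gap that holds the summit: at TfIIA-L it was the 105 bp to TTLL6B, not the gap to pll.

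Where a promoter summit was present, it usually lay upstream of the nearest own start site and between the start sites of the pair. The strongest promoter summit was upstream of the nearest own TSS at 19 of the 20 genes, 95%, against 89.4% of all genes with a promoter summit. The exception was MED6, with its summit 5 bp downstream. At MED6, Taf7 and TfIIA-L that TSS was an internal one, and the summit lay inside the gene. With only the 5′ end of each gene as its start, 18 machinery genes had a promoter summit, 29.0%, against 14.9% of all genes. The strongest summit was also within 500 bp of another gene's TSS at 18 of the 20, 90.0%, against 56.7% of all genes with a promoter summit. It fell between the own TSS and that of an opposite-strand gene at 15 of the 20, 75.0%, against 46.0%. At MED31 and Polr2H it lay past the neighbour's start site. The distance to the own TSS had a median of 152.5 bp, against 157 bp over all genes with a promoter summit, so the distance itself was ordinary. At 10 of the 20 genes the neighbour's TSS was nearer to the summit than the own TSS, and peak position alone does not show which gene of a pair a site serves.

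**Figure D2:**
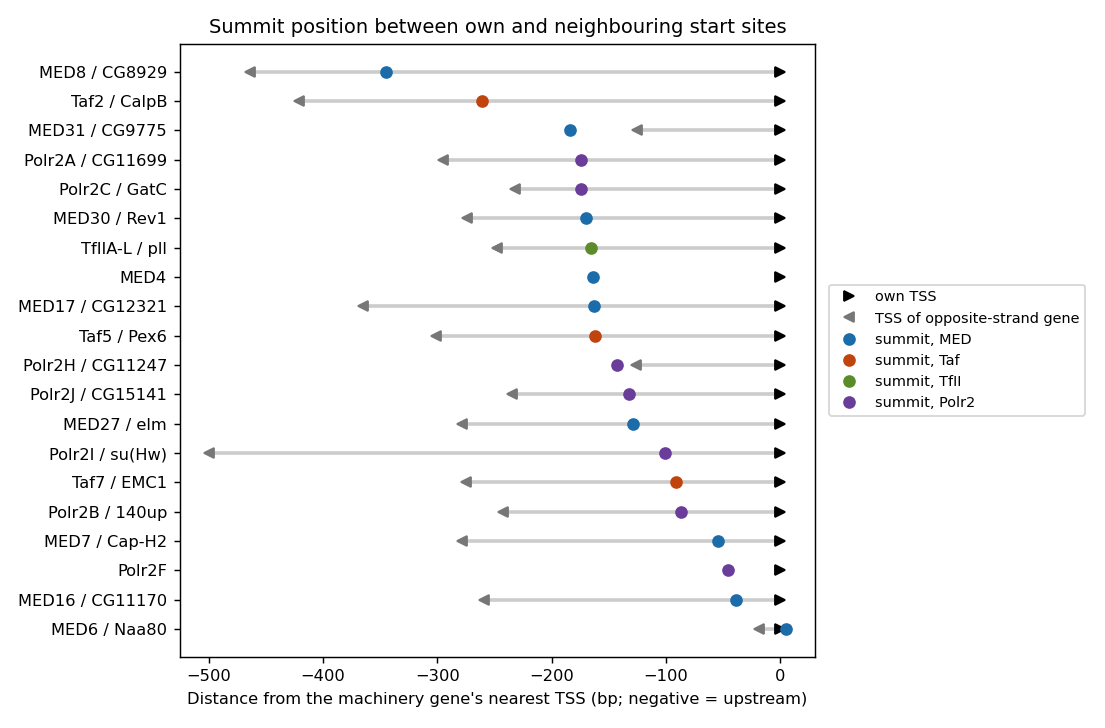
Position of the strongest promoter summit (coloured circle) relative to the machinery gene's nearest TSS at 0 bp (black triangle) and to the TSS of the nearest opposite-strand gene within 500 bp of the summit (grey triangle), for the 20 machinery genes with a promoter summit; negative distances are upstream. The summit falls between the triangles at 15 genes, and MED4 and Polr2F have no such neighbour.

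The 7 polymerase genes with a promoter summit covered a wide span of signal, from 599 at Polr2B to 85.5 at Polr2I. Polr2B, which encodes one of the big subunits that form the active cleft, had a peak of signal 599 on chromosome 3R (summit 87 bp from its TSS and 156 bp from that of 140up), with 219.8 in replicate 1 and 376 in replicate 2. Polr2H, a subunit shared by all nuclear RNA polymerases, had one of 562 on 3L, 143 bp from its TSS and 17 bp from that of CG11247, with 251.5 in replicate 1 and 306 in replicate 2. Polr2J, which pairs with Polr2C in polymerase assembly, had 315 (replicate 1, 152; replicate 2, 166) and shared its stretch with CG15141. These 3 were in the thresholded sets of both replicates. Polr2F, another shared subunit, had 235 with its summit 46 bp from the TSS and no other start site within 500 bp. Its values were 51.2 in replicate 1 and 187 in replicate 2, at rank 3708 and 1047 of the unthresholded lists. Polr2A, the catalytic subunit with the C-terminal repeat domain, had only 139 on the X chromosome, 174 bp from its TSS and 121 bp from that of CG11699. With 55.5 in replicate 1 and 82.2 in replicate 2, it was in the set of replicate 2 but not of replicate 1. Polr2C had 110 (52.5 and 58.4 in replicates 1 and 2) at a summit 58 bp from the start site of GatC, a mitochondrial tRNA amidotransferase gene, and was the only machinery gene whose promoter summit was in the set of replicate 1 but not of replicate 2. Polr2I, whose subunit helps the polymerase in start site choice and proofreading, had 85.5 (32.0 and 53.6 in replicates 1 and 2), the lowest of the strongest promoter peaks of the 20 genes, and the other TSS near it was that of the insulator gene su(Hw), 399 bp away.

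The remaining polymerase genes, Polr2D, Polr2E, Polr2G, Polr2K, Polr2L and Polr2M, had no summit in the locus. Of the 5 subunits shared with other polymerases, 2 had a promoter summit, and of the 8 others 5 did, against 17.2% of all genes. The Wilson intervals, 11.8 to 76.9% and 30.6 to 86.3%, overlap widely. At Polr2E, Polr2G and Polr2K no peak was listed at the promoter even in the unthresholded list of either replicate. Those lists had a promoter peak for 66.7% of all genes in replicate 1 and 69.2% in replicate 2. The locus of Polr2C also took in a peak of signal 2436, rank 14 of all, but its summit lay 2122 bp from the Polr2C start site and 105 bp from that of CenG1A.

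Among the Mediator genes, promoter summits were spread over the modules. Head genes had 3 of 7 (MED6, MED8 and MED17), middle genes 3 of 9 (MED4, MED7 and MED31), tail genes 1 of 5 (MED16), and MED27, MED28 and MED30, which are placed in the head or the tail in different descriptions, 2 of 3. In that order the Wilson intervals were 15.8 to 75.0%, 12.1 to 64.6%, 3.6 to 62.4% and 20.8 to 93.9%, against 17.2% of all genes. They overlap widely, so the modules cannot be ranked. MED14, the backbone that links the modules, had none. MED27 led the group with a signal of 626 (3R, 5654852 to 5655161; rank 318), with 239 in replicate 1 and 388 in replicate 2, its summit 129 bp from its own TSS and 149 bp from that of elm. MED30 had 452 (replicate 1, 151; replicate 2, 299.9), with the summit nearer to Rev1, a DNA polymerase gene of lesion bypass, at 104 bp than to its own TSS at 170 bp. MED17, a core subunit of the head, was the 1 machinery gene with 2 promoter summits. Its main peak had a signal of 375 (178.5 in replicate 1 and 208 in replicate 2) at 163 bp upstream, and an overlapping peak of 20.0 had its summit 40 bp downstream of the TSS. No listed peak of replicate 1 covered this weak summit. The best replicate 2 peak over it was the one of 208 again. MED7 had 356 (134 and 220.4 in replicates 1 and 2), opposite the condensin gene Cap-H2, and MED4 had 302 (93.5 and 207 in replicates 1 and 2) with no neighbour.

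Of the 4 lower MED peaks, 2 were in the thresholded sets of both replicates. MED31 had 227, with 121 in replicate 1 and 109 in replicate 2, and MED8 had 104, with 51.7 and 48.4, and both genes were in both sets. MED8 had the summit farthest from its own start, at 345 bp, and 119 bp from CG8929. MED16 had 149.7 and MED6 143, with 38.6 and 42.6 in replicate 1 against 105 and 99.2 in replicate 2, and both were in the set of replicate 2 only. Naa80, the neighbour of MED6, which encodes an enzyme that acetylates actin, starts 24 bp from that summit. The other 16 MED genes had no promoter summit, and among these MED20 and MED24 had summits in the locus, and the one at MED20 was nearest to the start site of poe.

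In the Taf group the genes with a promoter summit were Taf2, Taf5 and Taf7. Taf5, a scaffold protein of TFIID, had the strongest promoter peak of all machinery genes: 713 on 2R (rank 243), with 272 in replicate 1 and 437 in replicate 2, its summit 162 bp from its TSS and 139 bp from that of Pex6, a peroxisome assembly gene. Taf2, which contacts the initiator, had 346 (replicate 1, 133.5; replicate 2, 213) beside the calpain gene CalpB. Taf7, a partner of Taf1, had 110 (44.4 and 66.4 in replicates 1 and 2), and its summit lay upstream of an internal start site, opposite EMC1. All 3 were in both replicate sets. They belong to the 4 Taf genes whose proteins lack the histone fold, of which 3 had a promoter summit. Of the 11 genes for TAFs with a histone fold, the module through which these proteins pair, 0 had one in the conservative set. The Wilson interval allows a share of up to 25.9%, which takes in the 17.2% of all protein-coding genes. This grouping by histone fold was made after the values were seen and was not tested. It did not hold in replicate 2, where 4 of the 11 histone-fold genes had a promoter peak, against 22.6% of all genes.

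Those 4 were Taf4, Taf9, Taf11 and Taf13, and all were also in the wider joint set. Taf4, the TAF that lies at the core of TFIID, had a peak of 174.8 in replicate 2 and 285 in the wider joint set. The replicate 2 peak (3L, 16113588 to 16113754; rank 1184 of the unthresholded list) lay inside the gene, 121 bp upstream of an internal start site. No peak was listed there for replicate 1 even without a threshold. Taf11 had 74.2 in replicate 2 and 19.1 in replicate 1, at ranks 3367 and 32337. Taf13 had 56.8 and Taf9 54.3 in replicate 2, against 24.0 and 10 in replicate 1. These 4 genes are named because they passed the threshold in replicate 2 and not in replicate 1, so their better ranks there follow from the choice, and the unthresholded lists differ in length, with 115082 peaks in replicate 1 and 90837 in replicate 2.

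Several Taf loci held strong peaks that belonged by position to neighbours. Taf13 had one of 989.9 in its locus, 37 bp from the TSS of Pyroxd1 and 2451 bp from its own. Taf9 had one of 707, 113 bp from Ucp4A, and Taf12 one of 674.5, 141 bp from CG18476. Taf10 and Taf10b, paralogs whose start sites are 45 bp apart on opposite strands, had no promoter summit, although this is a head-to-head pair made of 2 machinery genes. A peak of 448.5 lay in the loci of both, 218 bp from the start site of aph-1. The 6 Taf genes with a locus summit but no promoter summit, the 5 named so far and Taf1, thus had summits at promoters of other genes.

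TfIIA-L was the 1 TfII gene with a promoter summit. It encodes the TFIIA precursor that is cut into the larger subunits of that factor. Its peak had a signal of 322 (replicate 1, 108; replicate 2, 208) and lay 166 bp upstream of an internal start site and 82 bp from pll, which encodes the kinase of the Toll pathway. When only the 5′ end of each gene was used as its start, the TfII count was 0. TfIIB, the factor that places the polymerase, had a peak of 121.7 in the set of replicate 2, 328 bp upstream, and none listed in replicate 1. TfIIS, the elongation factor that rescues stalled polymerase, had 45.9 in replicate 2 and 23.2 in replicate 1. TfIIA-S, the small subunit gene, had a peak of 164.6 in the unthresholded list of replicate 2 with the highest repeatability value that the list gives, yet it was not in that replicate's thresholded set, and its value in replicate 1 was 27.9. TfIIA-S and TfIIEalpha had locus summits of 87.1 and 211, more than 500 bp from their own start sites. The genes of TFIIF, TfIIFalpha and TfIIFbeta, the other TFIIE gene, TfIIEbeta, and the second small-subunit gene, TfIIA-S-2, had no locus summit.

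**Figure D3:**
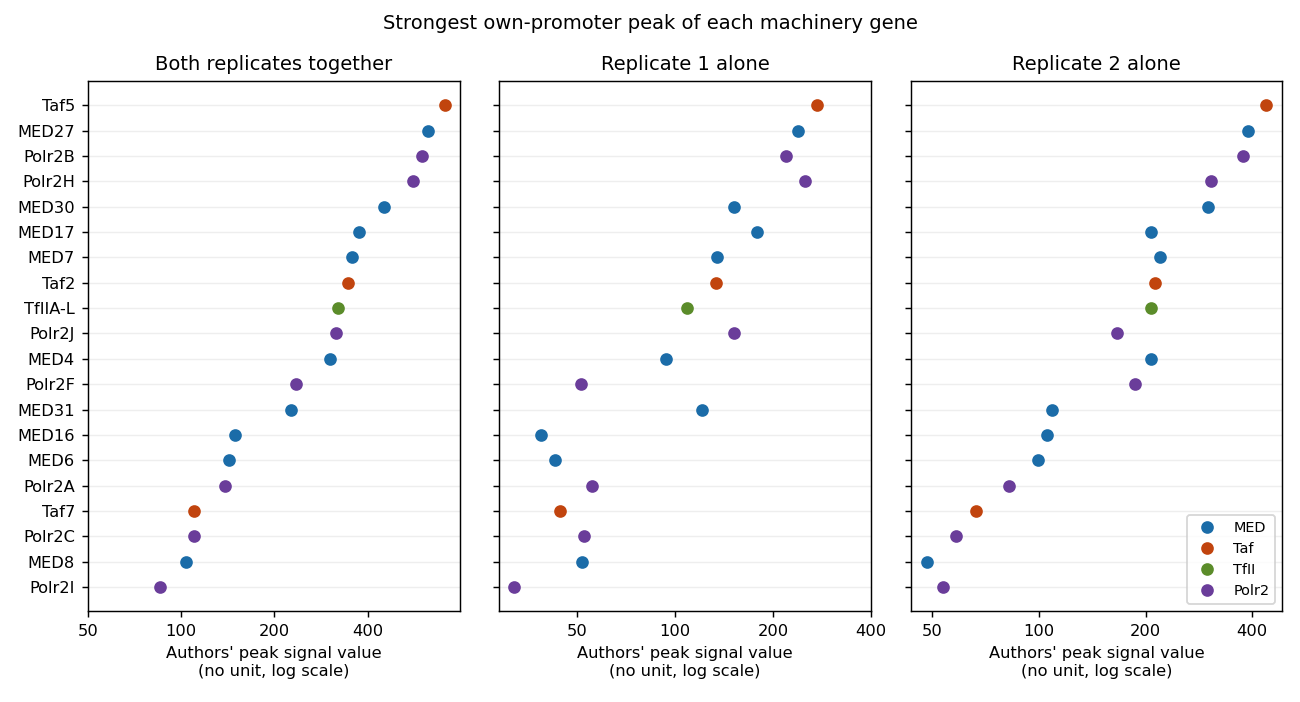
The authors' peak signal (x axis, log scale, no unit) at the strongest promoter summit of the 20 machinery genes, in the conservative set of both replicates together and at the overlapping peak in the unthresholded list of each replicate; levels are not comparable between panels. Taf5, MED27, Polr2B and Polr2H are the top 4 in every panel.

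At the 42 genes without a promoter summit, no summit was just outside the limit. The nearest summit to an own TSS was 1008 bp away at MED20, with none beyond 500 and up to 1000 bp, against the 345 bp of MED8 on the other side of the limit. With the limit at 1000 bp the machinery share stayed at 32.3%, and that of all genes rose from 17.2% to 20.3%. This rise was small as well, so the absence is a description. The median of the 42 was 6466.5 bp, and MED21, in the proximal part of 3L, was 2201708 bp from any summit. MED26 and Taf3 are on chromosome 4, where the whole set had 2 peaks. By arm, promoter summits were found at 10 of 21 machinery genes on 3R, 47.6% against 18.2% of all genes there, and at 4 of 15 on 3L, 26.7% against 18.4%. On 2R they were at 3 of 7, 42.9% against 15.6%, and on 2L at 2 of 11, 18.2% against 16.3%. On X they were at 1 of 6, 16.7% against 17.7%, and on chromosome 4 at 0 of 2, against 2.50%. With 2 to 21 machinery genes an arm, these shares are imprecise.

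These promoter peaks spanned low to high signal. Over the 20 genes the strongest promoter summit ranged from 85.5 through a median of 308.7 to 712.9, while all 1910 promoter summits ranged from 2.6 through 196.8 to 4246.4. The median machinery gene stood at the 70.3 percentile of promoter summits, while 7 of the 20 stood at percentile 34.3 or lower, with Polr2I lowest at 9.9. By the strongest summit of each gene, the median percentile over all genes with a promoter summit was 55.0. The comparisons with all promoter summits set genes against single summits, so they are not like for like. Among the 1249 peaks of highest signal were 11 of the 20 genes, 55.0%, against 34.4% of all promoter summits. Across the 20 genes the replicates' signals had a Spearman rho of 0.848, a description only, since both replicates had to support a peak for it to enter the set. In the thresholded sets 15 of the 20 genes had a promoter summit in both replicates, 4 (MED6, MED16, Polr2A and Polr2I) in replicate 2 only and 1 (Polr2C) in replicate 1 only. Over all protein-coding genes the replicate 2 set also gave more promoter summits, at 22.6% of genes against 13.3% in replicate 1. The same split over all genes was not counted, so it is no trait of the machinery genes.

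The share of machinery genes was above that of all genes in every list counted, with smaller gaps in the lists without a threshold. In replicate 1 alone, 16 of the 62 machinery genes had a promoter summit, 25.8%, against 13.3% of all genes. In replicate 2 alone, 25 did, 40.3%, against 22.6%, and in the wider joint set also 25, against 21.4%. In the unthresholded lists a promoter summit was listed for 46 machinery genes in replicate 1, 74.2% against 66.7% of all genes, and for 44 in replicate 2, 71.0% against 69.2%. At 11 machinery genes neither list had one: MED10, MED14, MED20, MED21, MED24, MED26, Taf3, Taf12, Polr2E, Polr2G and Polr2K. The share of all genes missing from both lists was not counted, so whether 11 is many or few is open.

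**Figure D4:**
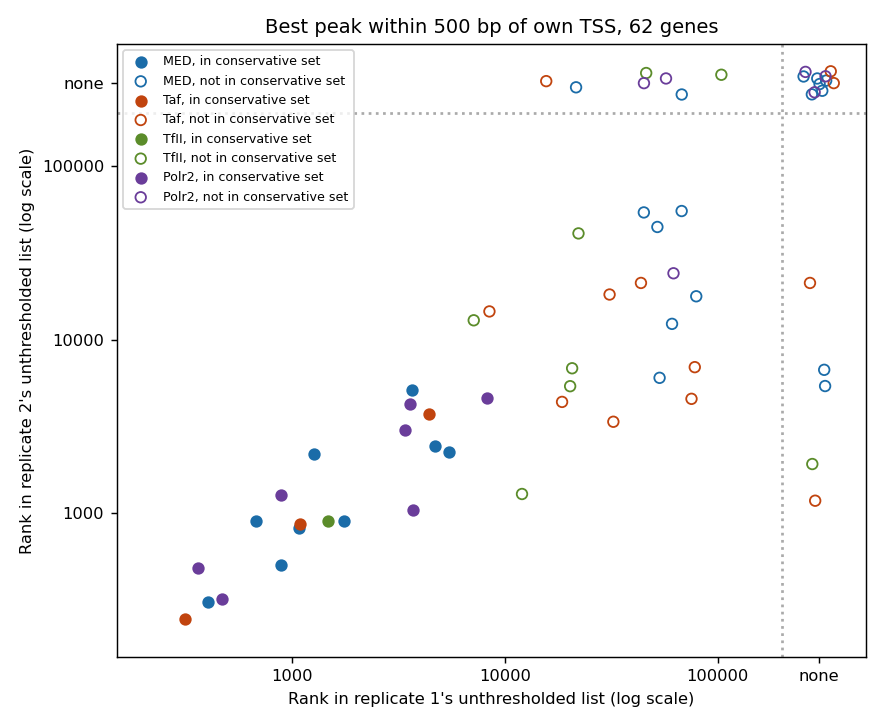
Rank of the best peak within 500 bp of an own TSS in the unthresholded list of replicate 1 (x axis) and replicate 2 (y axis), log scales, for the 62 machinery genes; genes with no listed peak are drawn beyond the dotted lines, spread slightly so that they can be told apart. The 20 genes of the conservative set (filled) have rank 8223 or better in replicate 1 and 5123 or better in replicate 2, while Taf4 and TfIIB rank 1184 and 1924 in replicate 2 with none in replicate 1.

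Short promoter words were counted around these summits and around all promoter summits, and with 21 summits the shares are imprecise. The DREF word TATCGATA was within 100 bp of 1 of the 21 promoter summits of machinery genes, 4.76%, against 5.50% of all promoter summits. That 1 was the weak downstream summit of MED17, which no listed peak of replicate 1 covered. The word starts 27 bp upstream of the TSS, in capitals in the 60 bases before that TSS (plus strand, chr3R:18189012-18189071).
MED17: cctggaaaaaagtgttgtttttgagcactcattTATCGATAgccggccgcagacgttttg
Its short core CGATA was at 6 of 21, 28.6% against 34.7%, among them the MED27 stretch printed above, where it is 58 bp to the left of the summit. The TATA word TATAAA was at 10 of 21, 47.6% (28.3 to 67.6) against 38.5%, and within 50 bp at 5 of 21, 23.8% against 23.2%. GAGAG was at MED30 and Polr2A, 2 of 21, 9.52% against 19.7%. The M1BP core GGTCACAC, the E-box CAGCTG and the Gli-type core CCACCCA were at 0 of 21, against 2.62%, 10.2% and 2.04%. With the window widened to 200 bp on each side, TATCGATA was at 5 of 21, 23.8% against 10.3%, including both MED17 summits, which share a single occurrence, and those of MED7, MED8 and Taf7. In that window GGTCACAC was at 3 of 21, 14.3% against 7.7%, CGATA at 12, 57.1% against 53.2%, and CCACCCA at 1, 4.76% against 3.77%, so for these 3 words too the order of the shares turned with the window. All words were counted on both strands, every CGATA inside TATCGATA counts for both, and a match is no proof of binding.

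The other genes of the machinery, which carry other names, gave shares on both sides of the background of 17.2%. The TFIIH list, subunits of the factor that opens the promoter and marks the polymerase, had a promoter summit in 3 of 10 genes. These were Ssl1 with 2650.2, a peak it shares with Chro, mrn with 554 and Tfb1 with 115. Of the genes for pausing and elongation factors, 7 of 20 had one, 35.0%, led by TH1 (653), a subunit of the pausing factor NELF, beside mei-41, and by Nelf-E (358), beside RpL14. Spt6, a histone chaperone of elongating polymerase, had 187. Of the Mediator kinase module and the relatives of TBP and TAFs, only skd, the Drosophila MED13, had one, of 220 and 419 bp from its TSS, so the share was 1 of 11 genes. RNA polymerases I and III had 2 of 17, led by Polr3E (396). Set against 2 other large complexes needed in most cells, the 32.3% of the machinery genes stood near the 28.8% of mitochondrial ribosomal protein genes (21 of 73, led by mRpL41 with 3295) and above the 10.4% of proteasome genes (5 of 48, led by Rpn3 with 243), while 61.3%, 74.0% and 50% of these 3 sets had another TSS within 500 bp. The Wilson interval of the proteasome share, 4.5 to 22.2, touches that of the machinery genes at 22.0 to 44.6, and none of these differences was tested.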

How the data were processed

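Per the labels, the data are peak lists from anti-GFP chromatin immunoprecipitation of 2 replicates, in dm6 coordinates, from chromatin sonicated to 200 to 800 bp. Neither the aligner nor the peak caller is named in these sources. The authors deposited a signal value per peak, with no normalization stated, and a score, a whole number of 830 to 1000 in the conservative set. The deposited ranked lists add a repeatability value, −log10 of the global IDR, whose highest entry is 5. The ranked list behind the conservative set held 5128 peaks at an IDR of 0.01 or lower, 116 more than that set, and why these are missing is not stated. Columns of that list that hold values of single lists without a sample name, 8 of them, were not used.

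Genes and start sites came from Ensembl release 115 and the sequences from RefSeq's Release 6 genome. Summits, distances and word matches were counted with Python 3.11.15, and Wilson intervals came from scipy 1.17.1. The counting was tested on simulated data. The members, lists and words were chosen with earlier results of these data known. All members are counted, and values are given for those with a promoter summit in the conservative set, in only 1 replicate set or only in the wider set, for pairs that share a summit, and for up to 3 genes of each related list. The values of TfIIA-S outside these sets were named after they were seen. A few values for neighbouring and related genes are not reported here. The rule on neighbouring start sites, the limit of 6000 bp, the protein roles and the gene body count were chosen after values were seen. The gene rye was left out of the related lists, because that name is ambiguous. No test was run, since genes and peaks are not replicates. Alternatives were other peak sets, distances and windows.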

Additional observations from a re-analysis of the deposited data

How the results depend on the processing

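Counts that stayed within 1.5 times the reported one are not listed. Of the 62 genes, 20 had a promoter summit in the conservative set, 13 at a global IDR of 0.001 (21.0%, against 12.4% of all genes) and 12 when the TSS had to lie inside the peak interval (19.4% against 8.23%). Leaving out 1 replicate gave 16 to 25 genes, and by group 7 to 9 MED, 3 to 7 Taf, 1 to 3 TfII and 5 to 6 Polr2 genes. In the wider joint set Taf genes numbered 7 and TfII genes 2. At an IDR of 0.05 TfII genes numbered 3, and at 0.001 Polr2 genes numbered 4. With the TSS inside the peak, MED genes numbered 5, Taf genes 1 and TfII genes 0, and with only the 5′ end of the gene TfII genes numbered 0. Locus summits were at 30 genes with flanks and at 5 without flanks (24 to 35 leaving out a replicate). The median percentile of signal was 64.5 to 72.0 leaving out a replicate. TATCGATA was at 0 summits within 50 bp and at 5 within 200 bp, and at 1 leaving out either replicate. In all 10 settings for the promoter count the share of machinery genes was above that of all genes. The causes of these shifts were not tested beyond what each setting removes. Groups of 9 to 25 genes leave wide intervals, and no paired analysis was possible because there is 1 group. How many reads stand behind each list is not known, so weak promoter peaks may have been missed for lack of depth.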
